A study of Mus musculus with 12 samples.

Results

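Voltage-gated sodium channels open when a nerve cell depolarises and carry the inward current of the action potential. Each channel is built around a pore-forming alpha subunit, encoded by genes such as Scn1a, Scn3a, Scn8a and Scn9a, and accessory beta subunits, such as those encoded by Scn2b, Scn3b and Scn4b, which adjust gating and link the channel to adhesion molecules and the cytoskeleton. In the central nervous system Scn3a is best known as an alpha subunit of embryonic and newborn neurons, and Scn8a as the main alpha subunit of mature nodes of Ranvier and axon initial segments.

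These 7 subunit genes were chosen by name from the 18193 genes that the array measures through at least 1 probe set with a single gene symbol. They are covered by 21 probe sets, and each gene was represented by its probe set with the highest mean over the 12 arrays, the others serving as a check. The study profiled auditory nerve preparations from normally developing CBA/CaJ mice of both sexes at birth (postnatal day 0, P0) and at P3, P7, P10, P14 and P21, with no treatment or engineered allele in any group. There were 2 mice per stage, and the left and right cochleas of a mouse were combined into 1 RNA sample and hybridised to 1 Affymetrix mouse whole-genome expression array. The dissection left the central axis of the cochlea (modiolus), through which the nerve runs, and took off most but not all of the sensory epithelium, so spiral ganglion neurons, Schwann cells and other cells of that axis were measured together. Values are log2 signals normalised by RMA (robust multi-array average), written below as log2 RMA values. A value is comparable between mice for 1 probe set, not between probe sets, so the genes are compared by how much they changed.

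All 12 preparations carried nerve cell and Schwann cell transcripts. The 10 of 10 neuronal markers on the array had a summed level of 14.44 to 14.60 (log2 of the summed signals, range of the 2 mice) at P0, 14.12 to 14.24 at P3, 15.04 to 15.33 at P7, 15.38 to 15.39 at P10, 15.78 in both mice at P14 and 15.54 to 15.95 at P21. By the calling rule given below, 6 of the 10 were higher at P21 than at P0, where 12.4% of all probe sets were. The 2 called lower, where 14.9% were, were Syt1 and Uchl1. Syt1 read 10.83 and 10.97 at P0 and 8.27 and 9.71 at P21. Uchl1 read 10.59 and 10.47 at P0 and 9.1 and 9.78 at P21. The summed level of the 7 Schwann cell markers found, of 10 listed, was 13.55 to 13.85 at P0 and 15.66 to 15.75 at P7. It then kept within 15.72 to 15.86. At P21 6 of the 7 were called higher than at P0, where 12.4% of all probe sets were. The exception was Sox10, which read 11.09 and 10.98 at P0 and 11.05 and 10.89 at P21. The hair cell list, 9 of 12 found, stood at 11.40 to 11.56 at P0, 10.89 to 11.12 at P7 and 11.11 to 11.52 at P21. In that list Espn lay in the lowest 25% of probe sets on all 12 arrays, Slc26a5 on 11 and Pou4f3 on 8, whereas Otof (7.61 to 8.98 over the arrays), Myo6 (10.17 to 10.85), Gfi1 (7.48 to 8.43) and Myo7a (6.34 to 7.66) did so on none. Atoh1 read 8.76 and 8.89 at P0 and 5.43 and 5.65 at P7. Across all probe sets the mice of a stage correlated at 0.991 to 0.996. The ratio of 3′ to 5′ signal of the Actb control probe sets, a sign of RNA integrity, was 0.81 to 1.41 (log2) on the 10 arrays from P0 to P14, but 2.32 and 2.03 on the P21 arrays.

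The stretches of genome just before the start of 3 subunits that rose and 1 that fell are shown for reference. RefSeq (GRCm38.p6) promoters were listed for 5 of the 7 genes; Scn3a and Scn3b were not among them. Each line gives the 250 bases before the annotated start, 5′ to 3′ on the strand of the gene, with every CG pair in capitals. Scn8a has a second listed start, with 9 CG pairs, which is not shown.
Scn8a, chr15:100870395-100870644 (+ strand): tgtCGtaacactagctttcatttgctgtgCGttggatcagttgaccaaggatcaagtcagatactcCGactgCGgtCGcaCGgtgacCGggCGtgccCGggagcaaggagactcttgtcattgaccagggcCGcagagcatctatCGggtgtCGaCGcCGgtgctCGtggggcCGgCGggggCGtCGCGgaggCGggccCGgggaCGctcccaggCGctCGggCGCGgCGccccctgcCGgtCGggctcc
Scn4b, chr9:45138374-45138623 (+ strand): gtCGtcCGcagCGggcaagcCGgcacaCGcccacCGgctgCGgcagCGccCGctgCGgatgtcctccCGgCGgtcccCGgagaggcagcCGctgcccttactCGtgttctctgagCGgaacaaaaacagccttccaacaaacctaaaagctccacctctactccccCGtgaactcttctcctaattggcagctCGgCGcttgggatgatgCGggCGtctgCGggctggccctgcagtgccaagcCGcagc
Scn1a, chr2:66440838-66441087 (- strand): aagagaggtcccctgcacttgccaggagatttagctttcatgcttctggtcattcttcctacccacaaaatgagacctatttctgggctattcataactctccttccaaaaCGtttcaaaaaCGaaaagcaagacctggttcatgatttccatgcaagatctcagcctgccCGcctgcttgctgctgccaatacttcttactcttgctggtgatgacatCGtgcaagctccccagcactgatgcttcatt
Scn9a, chr2:66634963-66635212 (- strand): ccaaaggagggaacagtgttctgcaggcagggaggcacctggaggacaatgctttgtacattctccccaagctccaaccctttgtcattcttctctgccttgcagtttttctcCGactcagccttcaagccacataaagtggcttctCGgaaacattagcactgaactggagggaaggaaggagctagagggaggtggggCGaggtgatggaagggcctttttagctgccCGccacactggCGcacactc

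The promoters of genes that rose were not alike in base composition. Scn8a held 30 CG pairs at a GC content of 68.0% and Scn4b held 23 at 66.0%, against medians of 6 pairs and 52.4% over 32851 promoters of the same length. Fewer CG pairs than in Scn8a were found in 94.1% of all promoters, and fewer than in Scn4b in 86.7%. Scn1a, which also rose, held 4 pairs at 46.8%, and Scn9a, which fell, held 5 at 54.4%. Scn2b held 1 pair at 38.4%. On the chromosome Scn3a, Scn2a, Scn1a, Scn9a and Scn7a follow one another on chromosome 2, whereas Scn3b, Scn2b and Scn4b lie in that order on chromosome 9 and Scn8a is on chromosome 15.

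The subunits moved in opposite directions between P0 and P21. Scn1a, Scn8a and Scn4b were 12.8-fold, 15.1-fold and 15.5-fold higher at P21 than at P0, and Scn9a, Scn3a and Scn3b were 15.2-fold, 5.37-fold and 4.35-fold lower. Scn2b was within 1.05-fold of its P0 level. A difference was called at an adjusted p under 0.05 (limma, Benjamini-Hochberg over 45037 probe sets) with a fold change over 1.5. By that rule 3 members rose and 3 fell between P0 and P21, where 12.4% of all probe sets rose and 14.9% fell, and the same number rose and fell between P0 and P10, where 9.24% rose and 10.1% fell. The moderated F-test over the 6 stages called 6 of the 7 members and 38.3% of all probe sets, the exception being Scn2b with an adjusted p of 0.107. The comparisons of P3, P10 and P21 with P0 share the 2 P0 mice. In a bulk preparation, fewer cells of a type and less RNA per cell cannot be told apart.

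**Figure D1:**
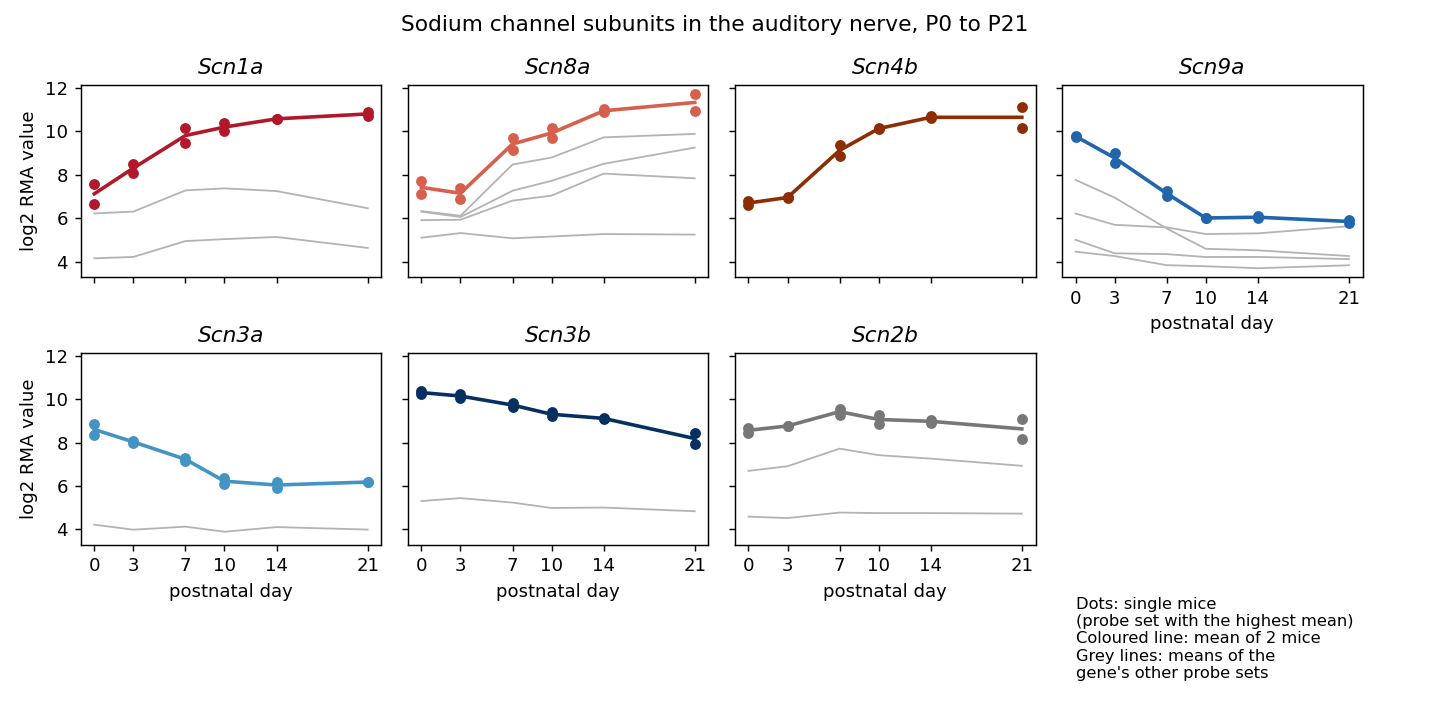
Log2 RMA value (vertical axis) of the 7 sodium channel subunits against postnatal day; dots are single mice, 2 per stage, coloured lines are stage means of the probe set with the highest mean, and grey lines are stage means of the gene's other probe sets. Scn1a, Scn8a and Scn4b climbed mainly by P7 and P10, Scn9a and Scn3a levelled off low by P10, Scn3b declined to P21 and Scn2b stayed between 8.17 and 9.56.

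Among the alpha subunits that rose, Scn8a encodes Nav1.6, the channel of mature nodes and initial segments. Its probe set 1423515_at read 7.73 and 7.11 at P0, 6.90 and 7.40 at P3, 9.68 and 9.16 at P7, 10.15 and 9.70 at P10, 11.01 and 10.89 at P14, and 10.93 and 11.74 at P21. The mice of P0 and P3 overlapped, and every mouse from P7 on lay above all 4 of them. The first called rise fell between P3 and P7, a log2 change of 2.27 ± 0.31 (SE), or 4.82-fold (limma adjusted p = 0.00129). By P10 the gene was 5.68-fold above P0 (adjusted p = 0.000258) and by P21 15.1-fold (adjusted p = 9.88e-06). The level went on rising in mean after P10, by 2.03-fold to P14, with the mice of the 2 stages apart, but the adjusted p was 0.451 at an unadjusted p of 0.00782, so that step was not called. Of the change from P0 to P21, 51.1% was present at P7, 64.0% at P10 and 90.2% at P14. Of the other 4 Scn8a probe sets, 1457412_at (11.8-fold), 1439889_at (7.75-fold) and 1451894_a_at (3.81-fold) were also called higher at P21 than at P0, and 1442208_at was not.

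Scn1a encodes Nav1.1, an alpha subunit of many fast-firing neurons. Probe set 1450121_at read 7.59 and 6.66 at P0, 8.52 and 8.10 at P3, 10.14 and 9.48 at P7, 10.37 and 10.03 at P10, 10.59 and 10.57 at P14, and 10.70 and 10.91 at P21. It was the only member called higher at P3, with both P3 mice above both P0 mice, although the P0 mice themselves were 0.93 apart. The log2 change to P3 was 1.18 ± 0.30 (2.27-fold, limma adjusted p = 0.0491), the call closest to the threshold. That call was lost without P0 replicate 2 (log2 change 0.72, adjusted p = 0.236), without P3 replicate 1 (0.98, adjusted p = 0.201) or P3 replicate 2 (1.40, adjusted p = 0.0747), and without any single array of P10, P14 or P21, which left the change at 1.18 with adjusted p from 0.0551 to 0.0699. The step from P3 to P7 was 2.83-fold (log2 change 1.5, adjusted p = 0.00846), and it was lost without P3 replicate 2 (1.29, adjusted p = 0.0577) or P7 replicate 1 (1.17, adjusted p = 0.0815). The change from P0 reached 8.43-fold at P10 (adjusted p = 6.29e-05) and 12.8-fold at P21 (adjusted p = 1.13e-05), with 73.0% of it present at P7. The dimmer Scn1a probe sets did not follow to the end. Probe set 1450120_at was 2.23-fold higher at P10 than at P0 (adjusted p = 0.0264), but its P21 mean of 6.46 ± 0.55 (SD, n = 2) stood beside 6.22 ± 0.37 at P0 (adjusted p = 0.608), and 1441728_at lay in the lowest 25% of its arrays at P0, P10 and P21, although it too was called higher at P10 (adjusted p = 0.00317).

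Scn9a fell the furthest of the alpha subunits. It encodes Nav1.7, a channel known from peripheral sensory and sympathetic neurons. Probe set 1442810_x_at read 9.79 and 9.76 at P0, 9.0 and 8.56 at P3, 7.03 and 7.25 at P7, 6.02 and 6.0 at P10, 6.10 and 5.99 at P14, and 5.76 and 5.94 at P21. No mouse of P0, P3, P7 and P10 overlapped with a mouse of the stage before or after it in that series, and from P10 on the values were below the array medians of 6.75 to 6.79. The fall was called at each of the first 3 steps, by 1.99-fold to P3 (limma adjusted p = 0.0058), 3.12-fold to P7 (adjusted p = 0.000153) and 2.19-fold to P10 (adjusted p = 0.0219). Without P0 replicate 1 the first of these had an adjusted p of 0.0552 (log2 change -0.98). The third was lost without P0 replicate 1 or 2 (-1.13, adjusted p = 0.0566 each), P7 replicate 2 (-1.02, 0.251), P10 replicate 1 (-1.14, 0.24) or P10 replicate 2 (-1.12, 0.0716).

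The fall was complete early. Scn9a was 13.6-fold lower at P10 than at P0 (log2 change -3.77 ± 0.15 SE, limma adjusted p = 3.16e-07) and 15.2-fold lower at P21 (adjusted p = 2.91e-07), so that 95.9% of the change was present at P10. The name of the representative probe set ends in _x_at, which marks probes that may bind other transcripts as well. All 5 Scn9a probe sets were called lower at P10 and at P21 than at P0. The next brightest, 1442809_at, went from a mean of 7.77 at P0 to values in the lowest 25% of the arrays, so its fall was at least 6.28-fold to P10 and at least 6.08-fold to P21. Probe set 1457819_at fell by 1.93-fold to P10 and 1.5-fold to P21. Probe set 1442333_a_at lay in the lowest 25% on 11 of the 12 arrays. Its P0 mice read 5.38 and 4.63, the second within that lowest 25%, so no minimum fall can be given for this probe set. The F-test over the 6 stages did not call it (adjusted p = 0.108). The last, 1421660_at, lay in the lowest 25% on all 12 arrays, P0 included, so its call carries no fold.

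Scn3a encodes Nav1.3. Its values on 1439204_at were 8.85 and 8.36 at P0, 7.97 and 8.09 at P3, 7.29 and 7.17 at P7, 6.37 and 6.07 at P10, 6.17 and 5.92 at P14, and 6.18 and 6.18 at P21. The mice of the first 4 stages did not overlap, and all 6 values from P10 on lay between 5.92 and 6.37. A 1.74-fold fall from P3 to P7 was called (log2 change -0.80, limma adjusted p = 0.011), but not without P3 replicate 2 (-0.74, adjusted p = 0.0617), P7 replicate 1 (-0.86, 0.0521) or P7 replicate 2 (-0.74, 0.0586). From P7 to P10 the mean went down by 2.01-fold (adjusted p = 0.0518), just outside the threshold. With either P0 array left out this adjusted p was 0.0483, and the step was then called. Scn3a was 5.22-fold lower at P10 than at P0 (adjusted p = 9.43e-06), a change of which 56.7% of the P0 to P21 total was in place at P7 and 98.4% at P10. Its other probe set, 1421705_at, lay in the lowest 25% on all 12 arrays.

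**Figure D2:**
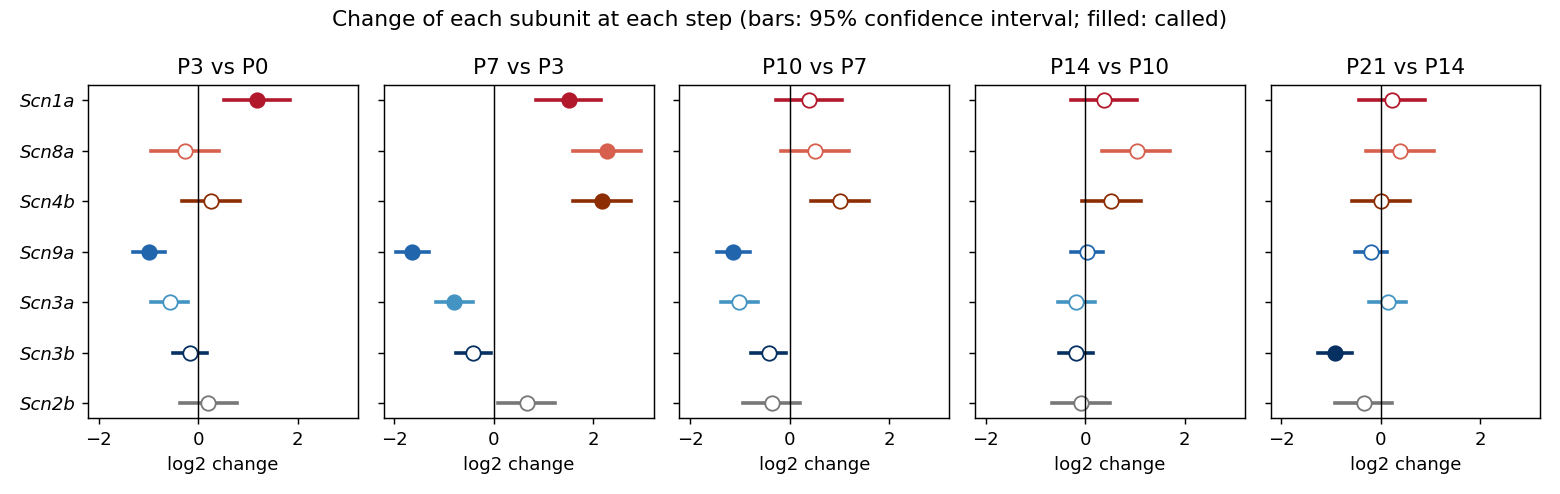
Log2 change (later minus earlier stage, horizontal axis) of each of the 7 subunits at the 5 consecutive steps; dots are fitted changes with 2 mice per stage, bars are 95% confidence intervals, and filled dots passed an adjusted p of 0.05 and a fold of 1.5. The step from P3 to P7 holds 5 filled dots, the step from P14 to P21 holds 1, Scn3b, and the step from P10 to P14 holds none.

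The beta subunits each went their own way. Scn4b encodes the subunit whose intracellular tail can block the open channel and is tied to resurgent current. On its only probe set, 1434008_at, the values were 6.61 and 6.79 at P0, 6.95 and 6.96 at P3, 9.39 and 8.86 at P7, 10.10 and 10.16 at P10, 10.70 and 10.60 at P14, and 10.17 and 11.13 at P21. All 8 mice from P7 on were above all 4 younger mice, and only the P21 pair spread across its neighbour. The gene rose 4.5-fold between P3 and P7 (log2 change 2.17 ± 0.26 SE, limma adjusted p = 0.000738). The next step, to P10, was 2.01-fold with an adjusted p of 0.163, and with either P21 array left out that adjusted p was 0.0477. Scn4b was 10.8-fold above P0 at P10 (adjusted p = 1.53e-05) and 15.5-fold at P21 (adjusted p = 3.63e-06), and 100.0% of the P0 to P21 change was present at P14.

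Scn3b, whose product resembles the beta1 subunit and modulates channel inactivation, declined slowly. Probe set 1435767_at read 10.38 and 10.23 at P0, 10.07 and 10.22 at P3, 9.81 and 9.65 at P7, 9.40 and 9.21 at P10, 9.09 and 9.14 at P14, and 8.42 and 7.95 at P21. From P3 on the mice of successive stages did not overlap, with the P21 pair set apart. The only called step was the last, a 1.91-fold fall from P14 to P21 (log2 change -0.93, limma adjusted p = 0.0187). Without P14 replicate 1 it was -0.96 with an adjusted p of 0.148. Scn3b was 2-fold lower at P10 than at P0 (adjusted p = 0.00091) and 4.35-fold lower at P21 (adjusted p = 6.15e-06). Only 47.2% of the change had taken place at P10 and 56.1% at P14. Its other probe set, 1426328_a_at, averaged 5.30 at P0 and 4.83 at P21 and passed no comparison.

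Scn2b, which encodes a subunit that is bound to the alpha subunit by a disulfide bond, was the steadiest member. On 1436134_at the values were 8.68 and 8.45 at P0, 8.77 and 8.76 at P3, 9.56 and 9.29 at P7, 8.85 and 9.28 at P10, 9.04 and 8.92 at P14, and 8.17 and 9.09 at P21. The P7 mice were the highest, the P21 mice 0.92 apart and on either side of the P0 pair. The rise from P3 to P7 was 1.58-fold (limma adjusted p = 0.115, 95% confidence interval of the log2 change 0.09 to 1.23). Without either P21 array the adjusted p of that step was 0.0213, and it was then called. The interval for P21 against P0 ran from -0.51 to 0.64, so a change of up to 0.64 on the log2 scale is within the error. The next brightest Scn2b probe set, 1430648_at, was called higher at P7 than at P3 (1.75-fold, adjusted p = 0.00724) and at P10 than at P0 (1.65-fold, adjusted p = 0.00586), and averaged 6.70 ± 0.23 (SD, n = 2) at P0 and 6.93 ± 0.06 at P21.

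**Figure D3:**
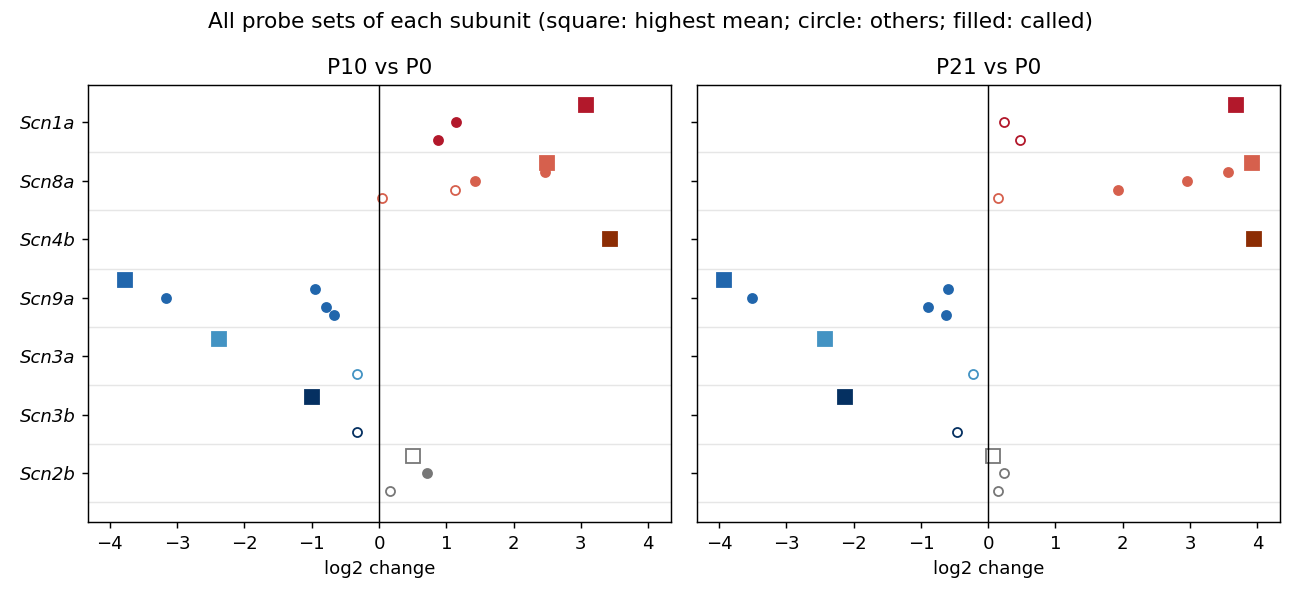
Log2 change from P0 (horizontal axis) of all 21 probe sets of the 7 subunits at P10 and at P21; squares are the probe sets with the highest mean, circles the gene's other probe sets, and filled symbols were called. All 5 Scn9a probe sets lie left of 0 at both ages, 4 of 5 Scn8a probe sets are called higher at P21, and only the square of Scn1a is still called at P21.

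Step by step, the calls were most frequent between P3 and P7. Between P0 and P3, Scn1a was called higher, as were 0.981% of all probe sets, and Scn9a lower, as were 2.8%. Between P3 and P7, Scn1a, Scn8a and Scn4b were called higher against 6% of all probe sets, and Scn9a and Scn3a lower against 3.98%. The median log2 change of the 7 members was 0.66 in that step and that of all probe sets -0.04. From P7 to P10 only Scn9a was called, lower, against 0.127% of all probe sets, with no member among the 0.104% that were higher. The limma test called no member and 0% of probe sets in either direction from P10 to P14. At an unadjusted p under 0.05 it held 1 member, Scn8a, and 3472 probe sets there, and the methods' t-test called 370 probe sets unadjusted and 0 adjusted. From P14 to P21 Scn3b was called lower, as were 1.73% of probe sets, and no member was among the 0.722% that were higher.

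Pairing a rising with a falling subunit within each array shows how far their ratio moved, without reading one level against the other. The difference of Scn8a minus Scn9a, set to a mean of 0 at P0, was 0.25 to 1.19 in the P3 mice, 4.26 to 5.0 at P7, 6.05 to 6.48 at P10, 7.25 to 7.26 at P14 and 7.52 to 8.15 at P21, on the log2 scale. That of Scn1a minus Scn3a was already 1.49 to 2.03 at P3, was 5.44 to 5.48 at P10 and ended at 6.0 to 6.21. Among the beta subunits, Scn4b minus Scn3b was 0.34 to 0.49 at P3, 4.30 to 4.55 at P10 and 5.36 to 6.79 at P21. From P3 on, the mice of neighbouring stages did not overlap in the first of these differences. In Scn4b minus Scn3b they did not overlap from P0 on. In Scn1a minus Scn3a only P14 (5.90 to 6.13) and P21 overlapped. The pairs were chosen as a riser and a faller, so the direction of each shift was fixed by that choice.

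The courses of the members were compared by shape. After each gene's own mean was removed, Scn8a and Scn4b differed by a root mean square of 0.38 on the log2 scale over the 12 arrays, Scn1a and Scn4b by 0.57, and Scn1a and Scn8a by 0.63. Among the genes that fell, Scn3a differed by 0.54 from Scn3b and by 0.58 from Scn9a, but Scn3b and Scn9a differed by 0.99, more than Scn3b and Scn2b at 0.82. Scn8a and Scn9a differed by 3.08. The 3 genes closest to Scn8a among 18193 were Lgi3 (0.28), Asic3 (0.29) and Slc24a2 (0.31), where the median gene lay at 1.64. Closest to Scn1a were Gpr37l1 (0.27), Asgr1 (0.28) and Mt1 (0.28), and closest to Scn9a were Cldn6 (0.28), Hmga2 (0.30) and Prr36 (0.34). Scn3a was matched most closely by Plagl1 (0.21), Nt5dc2 (0.24) and Cd248 (0.24), and Scn3b by Nsa2 (0.18), Igf1 (0.18) and Nop58 (0.19). For Scn4b they were Gm13629 (0.19), Lgi3 (0.20) and Igfbp6 (0.27). Gm13629 is annotated by RefSeq as a long noncoding RNA on chromosome 2 that overlaps Scn9a; its mean log2 RMA value was 5.27 at P0, 8.46 at P10 and 8.93 at P21, opposite in direction to Scn9a. These are descriptions over arrays that all genes share.

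Of the 7 other sodium channel genes listed, 4 were found on the array by a single symbol, and of these 1 rose and 2 fell between P0 and P10 while 1 rose and 1 fell between P0 and P21 (median log2 change -0.64 and -0.30, against -0.01 and 0.04 for all probe sets, of which 9.24% rose and 10.1% fell to P10 and 12.4% rose and 14.9% fell to P21). Scn7a, an alpha subunit relative that senses sodium rather than voltage, read 6.30 and 5.45 at P0, 8.92 and 8.17 at P10 and 8.21 and 8.78 at P21, a 6.15-fold rise at P21 (limma adjusted p = 0.000278). Its probe set 1436044_at was 10.3-fold higher at P21 (adjusted p = 1.62e-05), whereas 1427495_at was not called (1.19-fold, adjusted p = 0.53). Scn11a, which encodes the sensory neuron channel Nav1.9, went from 7.52 and 7.62 at P0 to 5.14 and 5.28 at P10 and 5.56 and 5.40 at P21, and was 4.26-fold lower at P21 (adjusted p = 1.06e-05). Scn2a, an alpha subunit of immature initial segments, read 8.65 and 8.36 at P0, 7.55 and 7.22 at P10 and 7.98 and 8.33 at P21, a 2.17-fold fall at P10 (adjusted p = 0.00147). At P21 it was not called against P0 (log2 change -0.35, adjusted p = 0.166), nor were the steps from P10 to P14 (adjusted p = 0.432) and P14 to P21 (adjusted p = 0.782), and its probe set 1427281_at, dim at P21, was called lower at P21 than at P0 (adjusted p = 0.0106). Scn10a lay in the lowest 25% on all 12 arrays.

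The scaffold that holds sodium channels at initial segments and nodes changed with the channels in part. Of 8 genes listed 7 were found, and 3 were called lower at P3 than at P0 (Ank2, Ank3 and Sptbn1), where 2.8% of all probe sets were, and 4 higher at P7 than at P3, where 6% were. Against P0, 4 were higher at P10, where 9.24% of all probe sets were, and at P21 4 were higher and 1 lower, where 12.4% and 14.9% were. The median log2 change at P21 was 0.99, against 0.04 over all probe sets. Sptbn4, which encodes the betaIV spectrin of nodes, read 6.54 and 7.24 at P0, 8.33 and 8.12 at P10 and 9.52 and 9.79 at P21, a 6.8-fold rise at P21 (limma adjusted p = 1.84e-05). Nfasc, encoding the adhesion molecule neurofascin, rose 4.2-fold to P21 (adjusted p = 1.58e-05), and both of its other probe sets were called higher too. Ank2, encoding ankyrin-B, was 2.62-fold higher (adjusted p = 0.000285), and Cntn1, encoding the adhesion molecule contactin-1, 1.99-fold (adjusted p = 0.000264). The other Cntn1 probe sets, 1449563_at and 1459197_at, were 2.15-fold and 21.7-fold higher at P21 than at P0 (adjusted p = 0.000413 and 2.07e-06). On 1459197_at the step from P14 to P21 was also called, at 3.86-fold (adjusted p = 0.0104). The single fall, named after its value was seen, was that of Nrcam, encoding an adhesion molecule of nodes, by 1.8-fold (adjusted p = 0.00103). Ank3, which encodes ankyrin-G, read 12.37 and 12.36 at P0 and 12.38 and 12.65 at P21 and was not called between them.

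Regulators of the channels went in both directions. Of 12 genes listed 11 were found. Between P0 and P10, 3 rose and 5 fell, beside 9.24% and 10.1% of all probe sets, and between P0 and P21, 2 rose and 5 fell, beside 12.4% and 14.9%. The median log2 changes of the list were -0.09 and -0.76, and those of all probe sets -0.01 and 0.04. Fgf12, encoding an intracellular fibroblast growth factor homologue that binds the tail of the alpha subunit, read 9.06 and 8.68 at P0, 11.34 and 11.22 at P10 and 11.65 and 11.82 at P21, with a 7.29-fold rise at P21 (limma adjusted p = 1.09e-05), and its other probe sets were called higher too, by 10.4-fold and 2.99-fold. Rbfox1, encoding a neuronal splicing factor, rose 3.06-fold (adjusted p = 0.000783). Its dimmer probe sets 1438217_at and 1447735_x_at were not called at P21 against P0 (adjusted p = 0.149 and 0.299). A further one, 1455358_at, was called higher at P7 than at P3 (2.16-fold, adjusted p = 0.0063). Rest, which encodes a repressor of neuronal genes, went from 11.51 in both P0 mice to 10.66 in both P10 mice and 10.18 and 9.79 at P21, 2.88-fold lower (adjusted p = 2.08e-05). Nedd4l, encoding a ubiquitin ligase that acts on sodium channels, was 2.42-fold lower (adjusted p = 3.03e-05), although its probe set 1457374_at was higher at P21 by 0.92 on the log2 scale (adjusted p = 0.0275).

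**Figure D4:**
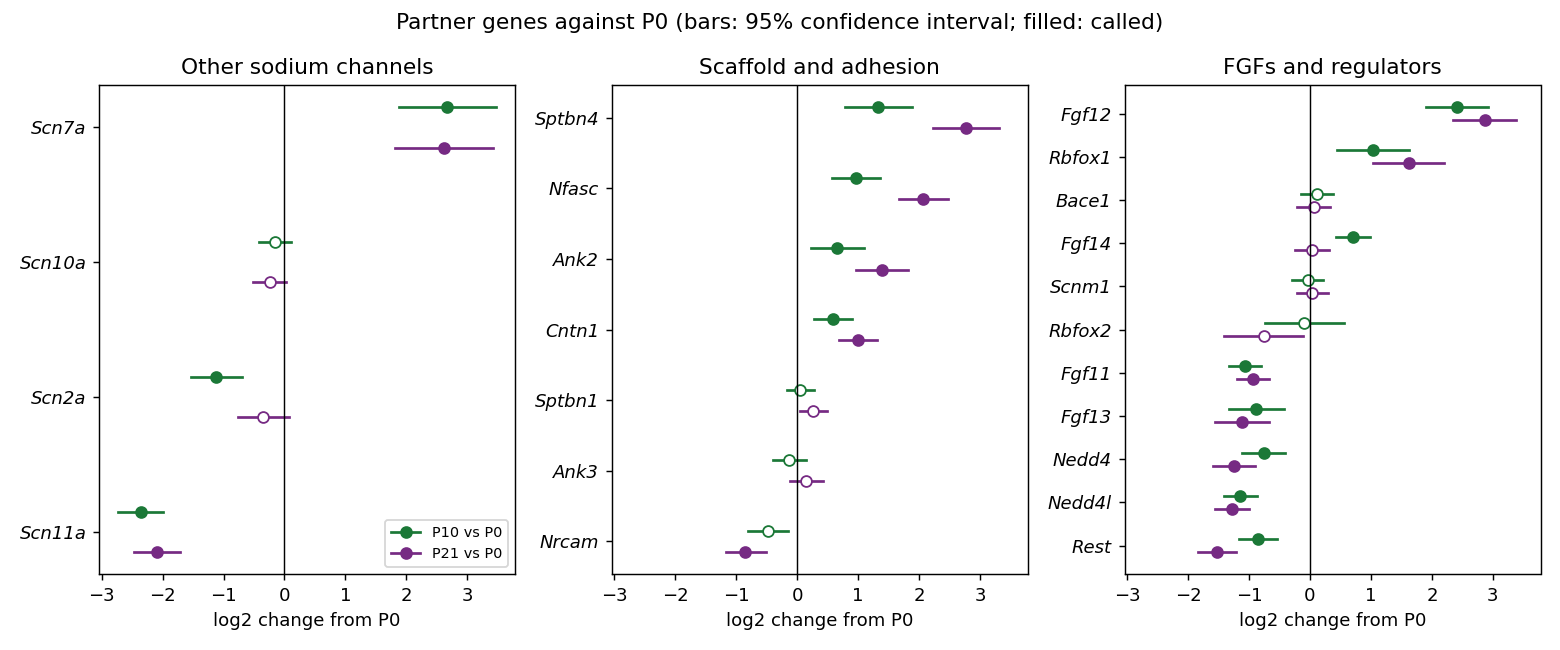
Log2 change from P0 (horizontal axis) of the other sodium channel genes, the scaffold and adhesion genes, and the FGF homologues and regulators at P10 (green) and P21 (purple); dots are fitted changes with 2 mice per stage, bars are 95% confidence intervals and filled dots were called. Scn7a, Sptbn4, Nfasc and Fgf12 lie furthest to the right at P21, and Scn11a and Rest are among those furthest to the left.

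Markers of other cells moved as well, some between P3 and P7 and some at the ages at which Scn8a and Scn4b were highest. The 8 of 8 cerebellar granule neuron markers, which would report attached brain tissue, had a summed level of 11.68 to 11.95 at P0, 11.99 in both P10 mice, 12.72 in both P14 mice and 12.37 to 13.13 at P21. At P21 6 of them were called higher than at P0, where 12.4% of all probe sets were, and at P10 2, where 9.24% were. Those called at P10 were Cbln3, which read 4.94 and 5.27 at P0, 6.39 and 6.14 at P7 and 6.59 in both P10 mice, and Zic1, which went from 10.24 and 9.68 at P0 to 10.84 and 10.94 at P10. Gabra6, a GABA receptor subunit typical of granule neurons, read 5.24 and 4.80 at P10, 8.50 and 9.23 at P14, and 6.92 and 9.92 at P21. The P21 mice differed by over 1.5-fold in 6.3% of all probe sets, against 1.4% to 5.1% within the other stages. How many of all probe sets were lower in replicate 1 was not counted, so the counts that follow have no baseline. Replicate 1 was below replicate 2 in 7 of 8 granule neuron markers, with Fat2 the other way. The same held for 9 of 10 general neuronal markers, with Map2 the other way. Of the 7 subunits 5 were lower in replicate 1, with Scn3b the other way and Scn3a equal. Also lower in replicate 1 were 7 of 8 striated muscle, 6 of 7 Schwann cell and 6 of 7 scaffold genes, and 8 of 11 regulators. The lists of hair cells (5 of 9), central glia (4 of 8) and other sodium channel genes (2 of 4) were more evenly split. Central glial markers, 8 of 8, summed to 11.66 to 11.82 at P0, 11.81 to 12.13 at P3 and 12.85 to 13.19 at P7. They stood at 13.55 to 13.94 at P10 and 14.41 to 14.46 at P21. Between P3 and P7, 5 of them were called higher, where 6% of all probe sets were. At P21 7 were called higher than at P0, where 12.4% were. Striated muscle markers, 8 of 8, summed to 9.73 to 11.03 at P0, 9.86 to 10.06 at P3 and 11.62 to 11.70 at P7. At P21 the sum was 11.47 to 11.70. Only 1 of them, Myl1, was called higher at P21 than at P0, and 2 were called lower. Over all probe sets 12.4% were higher and 14.9% lower. Myl1 read 7.37 and 8.75 at P0, 8.66 and 9.2 at P3, 11.5 and 11.29 at P7, and 11.21 and 11.38 at P21. The median log2 change of the list from P0 to P21 was -0.69. The part of these markers and of the hair cell markers in the changes of the subunits was not tested.

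**Figure D5:**
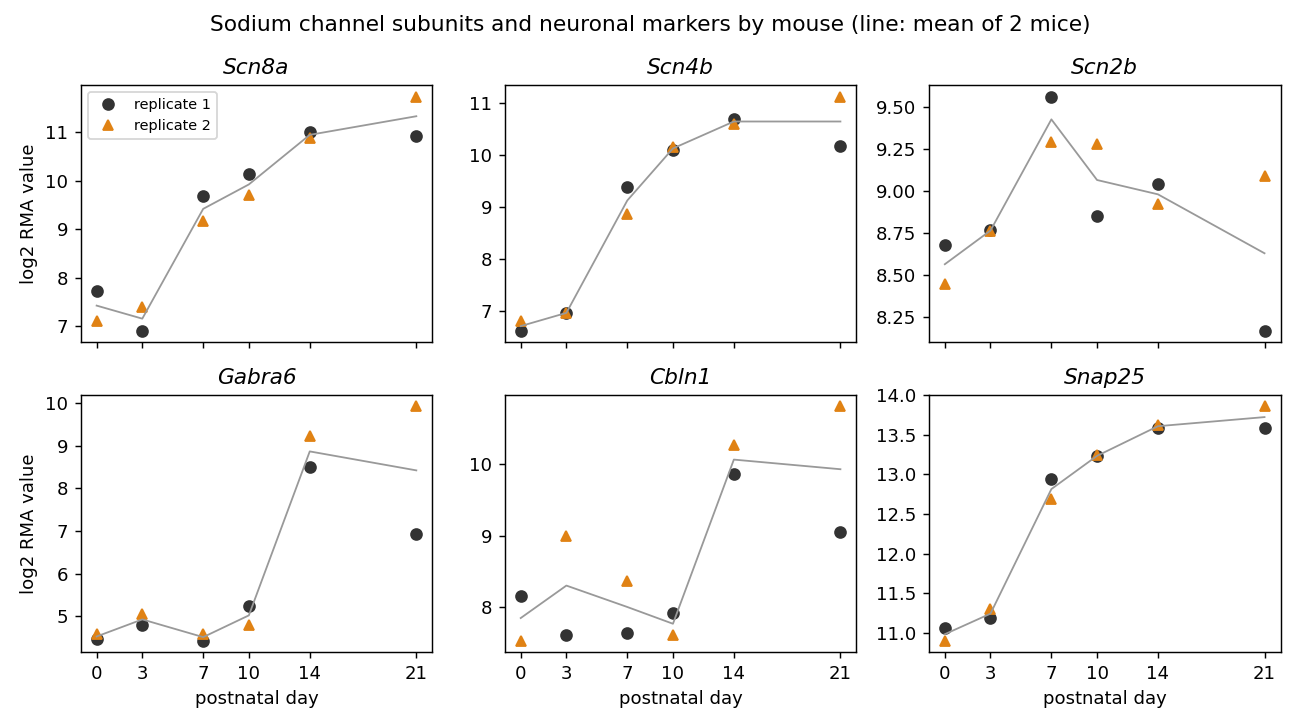
Log2 RMA value (vertical axis, with its own range in each panel) against postnatal day of the subunits Scn8a, Scn4b and Scn2b, the granule neuron markers Gabra6 and Cbln1 and the neuronal marker Snap25; circles are replicate 1, triangles replicate 2 and lines stage means. Gabra6 is at 5.24 or below up to P10 and at 8.50 and 9.23 at P14, and replicate 1 is the lower of the P21 mice in all 6 panels.

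The P21 values also came with the higher 3′ to 5′ balance given above, 2.32 and 2.03 for Actb against 0.81 to 1.41 on the other arrays. Age at P21 and balance therefore cannot be told apart, and a fit with the balance does not separate them. When the Actb balance of each array was added to the fit, Scn9a (limma adjusted p = 0.0233), Scn3b (0.032) and Scn4b (0.0212) were still called at P21 against P0, whereas the adjusted p was 0.056 for Scn1a (log2 change 4.89), 0.0655 for Scn8a (4.94) and 0.133 for Scn3a (-2.07). The fall of Scn3b from P14 to P21 had an adjusted p of 0.921 in that fit (log2 change -1.54). The 6 calls at P10 against P0, between stages with a like balance, were the same with and without the balance and with both P21 arrays left out.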

How the data were processed

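Total RNA from 12 auditory nerve preparations was hybridised by the authors to Affymetrix arrays. The deposited values are log2 signals, background-corrected, quantile-normalised and summarised per probe set by RMA in Affymetrix Expression Console; MAS5 is also named in the submitters' notes, and versions and genome build are not given in the sources used here. Arrays carry no read depth, and their number, 2 per stage, limits the precision. Of 45101 probe sets, 64 control probe sets were left out of the tests; 34945 of the remaining 45037 had 1 gene symbol, 932 several and 9160 none, and genes were named only from those with 1.

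A group-means model over all 12 arrays was fitted with limma 3.58.1 in R 4.3.3 (empirical Bayes, 6 residual and 4.03 prior degrees of freedom), with Benjamini-Hochberg adjustment over 45037 probe sets and no filter on low values. Each stage was compared with the one before, and P10 and P21 with P0. A probe set was called dim where it lay in the lowest 25% of its arrays on both arrays of a stage. Scripts were tested on simulated data.

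The 7 members were named throughout. Of each list of partner genes, those called at P10 or P21 against P0 were named, up to 4 by fold, and for each member called over the stages, the 3 genes of most similar course. The lists held other sodium channel genes, scaffold and adhesion genes, FGF homologues and regulators, and markers of neurons, hair cells, Schwann cells, central glia, cerebellar granule neurons and striated muscle. Members and lists were chosen with earlier results of these data known.

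Alternatives were a replicate block, an intensity trend, array weights, the 4 arrays of a comparison alone, a common array median, dim probe sets left out, the mean of a gene's probe sets, each array left out, the Actb balance as covariate, and the methods' t-test with and without adjustment. Leaving out both P21 arrays was added after seeing the data.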

Additional observations from a re-analysis of the deposited data

How the results depend on the processing

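Among the member changes called under at least 1 setting, none reversed in direction under another. Changes called under no setting were not checked for this. Of the 21 called changes 1, Scn9a at P10 against P0, was called in all 23. Counts below are of the 7 members. Higher at P3 than at P0 was 1, and 0 with array weights, the 4 arrays alone, the mean of all probe sets, the Actb balance, both forms of the methods' t-test or without both P21 arrays; leaving out single arrays gave 0 to 1. Lower at P3 was 1, and 0 with the 4 arrays alone or the adjusted t-test, with 0 to 1 over single arrays left out. At P7 against P3 the adjusted t-test gave 0 higher and 0 lower, and the mean of all probe sets gave 1 lower, with 1 to 2 lower and 2 to 4 higher over single arrays left out; higher was 2 with the Actb balance (Scn1a lost), 4 with the 4 arrays alone or without both P21 arrays (Scn2b gained), and 3 with the unadjusted t-test, Scn2b in place of Scn1a. At P10 against P7, 1 was higher without both P21 arrays, with 0 to 1 over single arrays left out; lower was 2 with the intensity trend, array weights, a common median or the unadjusted t-test, and 0 with the 4 arrays alone, the mean of all probe sets or the adjusted t-test, with 0 to 1 over single arrays left out. At P14 against P10 the unadjusted t-test gave 1 higher. Lower at P21 than at P14 was 0 with the 4 arrays alone, the mean of all probe sets, the Actb balance or either t-test, with 0 to 1 over single arrays left out. The adjusted t-test gave 0 higher and 1 lower at P10 against P0, and 0 higher and 0 lower at P21 against P0, where the Actb balance gave 1 higher. Over all probe sets the adjusted t-test called 97 at P10 and 24 at P21 against P0. With the replicate number as a block, 2 members were lower at P10 than at P7, Scn3a joining at a limma adjusted p of 0.037. No other call of a member changed with that block. The deviations of same-numbered mice from their stage means correlated at -0.12 to 0.32 (median 0.09), and at over 0.1 in 6 of 15 pairs of stages. Whether the numbers mark a shared batch was not tested. The 4 changes called under some setting only were Scn3a and Scn4b at P10 against P7, Scn2b at P7 against P3 and Scn8a at P14 against P10. The cause of these moves was not tested.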
